A study of Mus musculus with 38 samples.

Results

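The unfolded protein response and the integrated stress response were followed through 41 genes of the mouse, out of 55487 genes listed in each count table. The genes were taken by name from a list of endoplasmic reticulum (ER) chaperones, ER-associated degradation (ERAD) factors, stress sensors and targets of the transcription factor ATF4, with older symbols accepted (Ero1l is now Ero1a, Ero1lb is Ero1b). All 41 were found. They were divided by role into 14 ER chaperones and folding factors, 2 ER oxidases, 8 ERAD factors, 6 sensors and transcription factors, and 11 ATF4-linked targets.

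The study sequenced RNA of glioma and myeloid cells kept for 16 h at 21% oxygen (normoxia) or under 0.1% oxygen (hypoxia). BV2 is a mouse microglial line, GL261 is a mouse glioma line (here carrying the plasmid pEGFP-N1), and BMDM are macrophages grown from bone marrow of wild-type (WT) mice. BV2 and its co-cultures were kept in medium with less serum (2% FBS) than BMDM and theirs (10% FBS). In the first experiment each cell type was sequenced from monoculture or from direct co-culture, in which BV2 were seeded onto 2 times as many GL261 and BMDM onto an equal number (1 to 1). In the second, BV2 and BMDM monocultures received the solvent DMSO at either oxygen level. Other hypoxic monocultures received panobinostat (10 nM), which inhibits histone deacetylases. That gives 18 groups and 38 libraries: the BMDM co-cultures have 3 libraries at each oxygen level, and each of the other groups has 2. The co-cultured cells were separated in a way the labels do not describe, and BV2 and GL261 are established lines, so each stands for 1 line only. The labels call replicates biological only for BV2 and GL261 in the first experiment and name no cultures or animals, so p-values measure the spread between these libraries, which may in part be technical.

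Proteins that fail to fold in the ER are sensed by the membrane proteins IRE1 (Ern1), which splices the Xbp1 message, ATF6, which is cut and moves to the nucleus, and PERK (Eif2ak3), which phosphorylates the translation factor eIF2. ATF6 and XBP1 act mostly on chaperone and ERAD genes, whereas phosphorylated eIF2 favours translation of ATF4, which acts on amino acid, redox and cell death genes. Other kinases also phosphorylate eIF2, so the ATF4 branch, called the integrated stress response, can run without ER stress, and severe oxygen loss is known to engage both.

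The promoters of 8 members are shown in part because they carry motifs known for ER stress, for ATF4 or for hypoxia. RefSeq start sites on GRCm38.p6 (mm10) gave windows from 250 bases before to 50 bases after the start for 37 of the 41 genes; Derl1, Hyou1, Atf6 and Manf had no entry. The ER stress element, CCAAT and CCACG 9 bases apart on either strand, was in 10 of these 37 genes, against 0.119% of 32851 windows of the same length. It was in Hspa5, Hsp90b1, Calr, Canx, Pdia6, Dnajc3 and Creld2, or 7 of 12 chaperone genes with a window, and in Ero1lb, Syvn1 and Derl3. None of the 11 ATF4-linked genes and none of 5 sensor genes had it. In the stretches below, each written 5′ to 3′ on the strand of the gene, capitals mark CCAAT and CCACG or, where the element lies on the opposite strand, CGTGG and ATTGG.
Hspa5, chr2:34771990-34772089, plus strand: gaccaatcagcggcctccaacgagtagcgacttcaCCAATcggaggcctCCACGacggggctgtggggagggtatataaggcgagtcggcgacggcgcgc
Hsp90b1, chr10:86705525-86705664, minus strand: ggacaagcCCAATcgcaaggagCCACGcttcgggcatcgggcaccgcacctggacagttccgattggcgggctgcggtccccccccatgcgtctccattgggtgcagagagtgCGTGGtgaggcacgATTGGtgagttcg
Calr, chr8:84847042-84847121, minus strand: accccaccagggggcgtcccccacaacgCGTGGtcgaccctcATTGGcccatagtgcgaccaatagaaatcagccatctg
Derl3, chr10:75893218-75893297, plus strand: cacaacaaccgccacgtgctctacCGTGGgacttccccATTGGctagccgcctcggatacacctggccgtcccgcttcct
Hsp90b1 carried 2 copies in opposite directions. CCACG alone, which is also part of the ER stress element, was in 30 of the 37 genes and in 32.8% of all windows, and TGACGTGG was in none of the 37 and in 0.676% of all windows.

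The C/EBP-ATF element TGATGNAA, searched on both strands, was in Herpud1 and in 4 of 11 ATF4-linked genes (Trib3, Chac1, Vldlr and Asns), in none of 12 chaperone genes, and in 3.97% of all windows. ACGTG, the core of hypoxia response elements, was in 15 of the 37 genes, among them Ero1l and Ddit4, with 5 of 12 chaperone and 5 of 11 ATF4-linked genes, and in 19.6% of all windows; it overlaps CCACG in the run CCACGTG. Capitals mark TGATGNAA on either strand in Asns and Chac1, and ACGTG on either strand in Ero1l and Ddit4.
Asns, chr6:7693210-7693289, minus strand: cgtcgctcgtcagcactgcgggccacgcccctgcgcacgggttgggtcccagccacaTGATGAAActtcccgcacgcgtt
Chac1, chr2:119351022-119351101, plus strand: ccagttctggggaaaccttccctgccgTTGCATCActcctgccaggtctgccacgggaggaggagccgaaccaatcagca
Ero1l, chr14:45318593-45318672, minus strand: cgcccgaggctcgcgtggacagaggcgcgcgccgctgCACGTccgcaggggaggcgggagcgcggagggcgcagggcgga
Ddit4, chr10:59951911-59951990, minus strand: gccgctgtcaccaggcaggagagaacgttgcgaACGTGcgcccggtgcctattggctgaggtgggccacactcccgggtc
A match is a run of letters and not a measured binding site.

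Libraries held between 9634700 and 27238933 counted reads. Levels are given as CPM, which are counts relative to the library total, scaled by trimmed mean of M-values factors, and changes as log2 fold changes ± their standard error from edgeR. Marker sums, estimates of partner RNA and the CPM differences set beside those estimates use CPM without these factors. A gene was called when its p-value, adjusted over all genes tested in that comparison, was under 0.05. The 12 myeloid markers summed to between 3031 and 5524 CPM in BV2, to at most 51.3 CPM in GL261, where the 4 of them at 0 counts in every normoxic monoculture library were Itgam, Aif1, Adgre1 and Cx3cr1, and to between 7262 and 11936 CPM in BMDM of the first experiment. Of the 12 glioma and neural markers, Sox9 was at 0 counts in all GL261 groups, and the list summed to between 1665 and 2976 CPM there. It also summed to between 152 and 287 CPM in lone BMDM of the first experiment and between 145 and 273 CPM in co-cultured BMDM. Neutrophil and lymphoid marker lists stayed at or below 19.5 CPM in every group. The BMDM of the second experiment differed from those of the first in a list of 9 fibroblast and endothelial markers, which summed to between 2675 and 23243 CPM, with none of the 9 at 0 in a whole group, against between 78.1 and 602.6 CPM. In GL261 the same list summed to between 571 and 940 CPM. Among BMDM co-cultures in hypoxia, replicate 2 was the highest for 36 of 41 members. Fewer cells of a type and less RNA per cell cannot be told apart in such bulk libraries.

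The 41 genes together took between 0.789% and 1.57% of counts in the normoxic libraries. In hypoxia their share was 2.51% and 3.25% in BV2 alone, 1.66% and 1.90% in GL261 alone, and 2.36% and 2.37% in BMDM alone. It reached 4.29% and 5.12% in BV2 from co-culture, and between 2.87% and 5.32% in BMDM from co-culture. Hypoxic BMDM of the second experiment were among the highest of the series, at 7.89% and 4.33% with DMSO and 7.97% and 4.72% with panobinostat. Chaperone genes made up most of each share in BV2 and BMDM, and in hypoxia the ATF4-linked genes took a larger share of counts in GL261 alone (0.407% and 0.467%) than in BV2 alone (0.230% and 0.238%). A large part of that difference came from 1 gene, Ddit4, at a mean of 1874 CPM in hypoxic GL261 and 193 CPM in hypoxic BV2, without scaling factors.

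**Figure D1:**
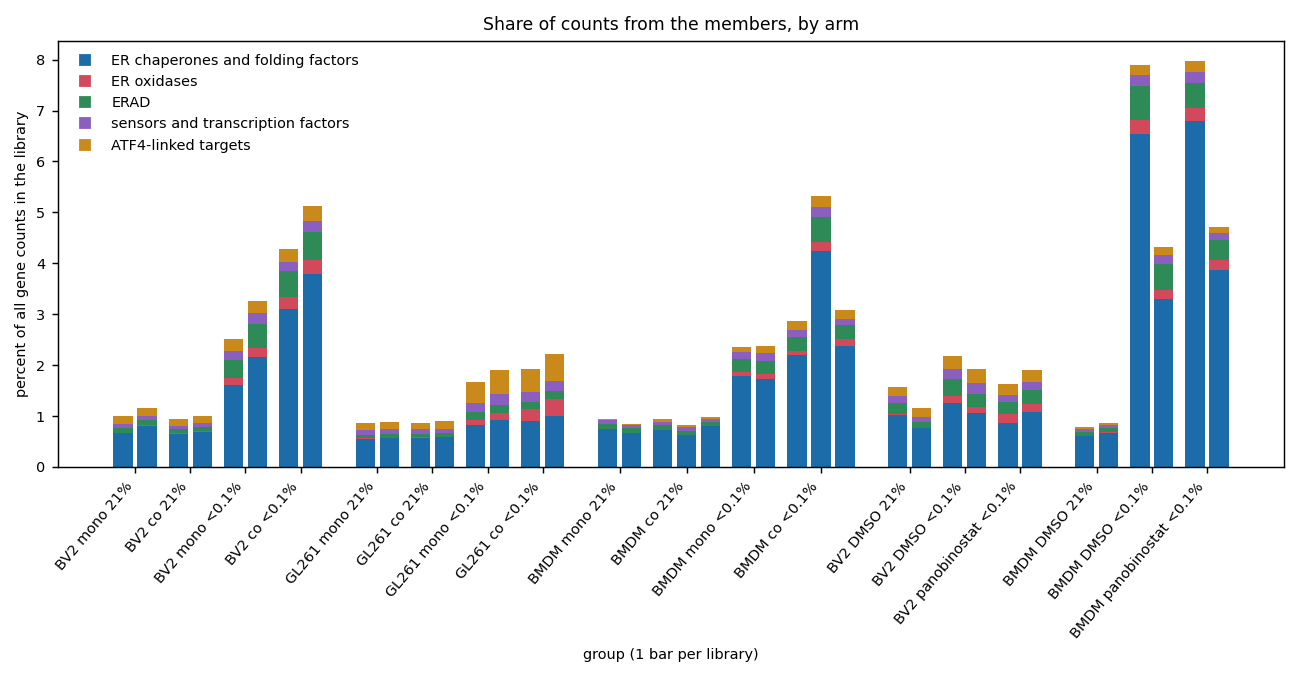
Percent of all gene counts (y axis, from 0) that came from the members in each library (1 bar per library, grouped by cell type, culture and oxygen), coloured by arm. The 41 genes took between 0.789% and 1.57% of counts in the normoxic libraries, and chaperone genes made up most of each bar in BV2 and BMDM.

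Per kilobase of exon, Calr, the calcium-binding lectin chaperone, was the highest member in normoxia in BV2 (700.1 CPM per kb), GL261 (382) and BMDM (752). Hspa5 (BiP, the main ER Hsp70) rose close to it in hypoxia in BV2, at 1261 against 1324 CPM per kb. In hypoxic GL261 the order was another one: Ddit4, an inhibitor of mTORC1 signalling, stood first at 1064 CPM per kb, followed by Hspa5 at 824, Atf4 at 462 and Calr at 347. At the other end, Derl3 was at 0 counts in both BV2 monoculture groups and Stc2 was at 0 counts in both GL261 monoculture groups.

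Hypoxia raised members in every cell type, and no member was called lower with hypoxia in any of the 8 comparisons of hypoxic with normoxic libraries. In monoculture 36 of 40 tested members were called higher in BV2, 32 of 39 in GL261 and 39 of 41 in BMDM. Of all genes tested, 30.9% were called higher and 31% lower in BV2, 23.2% and 21.4% in GL261, and 13.3% and 10.6% in BMDM. The members had median log2 fold changes of 1.77, 0.93 and 1.73 in these cell types, beside 0.00, -0.03 and 0.03 over all genes tested. Without replicate 2 of the normoxic BMDM monocultures, 25 members were called in BMDM. Over the 8 comparisons, 9 members were called higher in all 8: Dnajb9, Dnajc3, Ero1l, Herpud1, Sel1l, Syvn1, Ddit3, Trib3 and Chac1. Psat1, an enzyme of serine synthesis, was called in none of them.

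**Figure D2:**
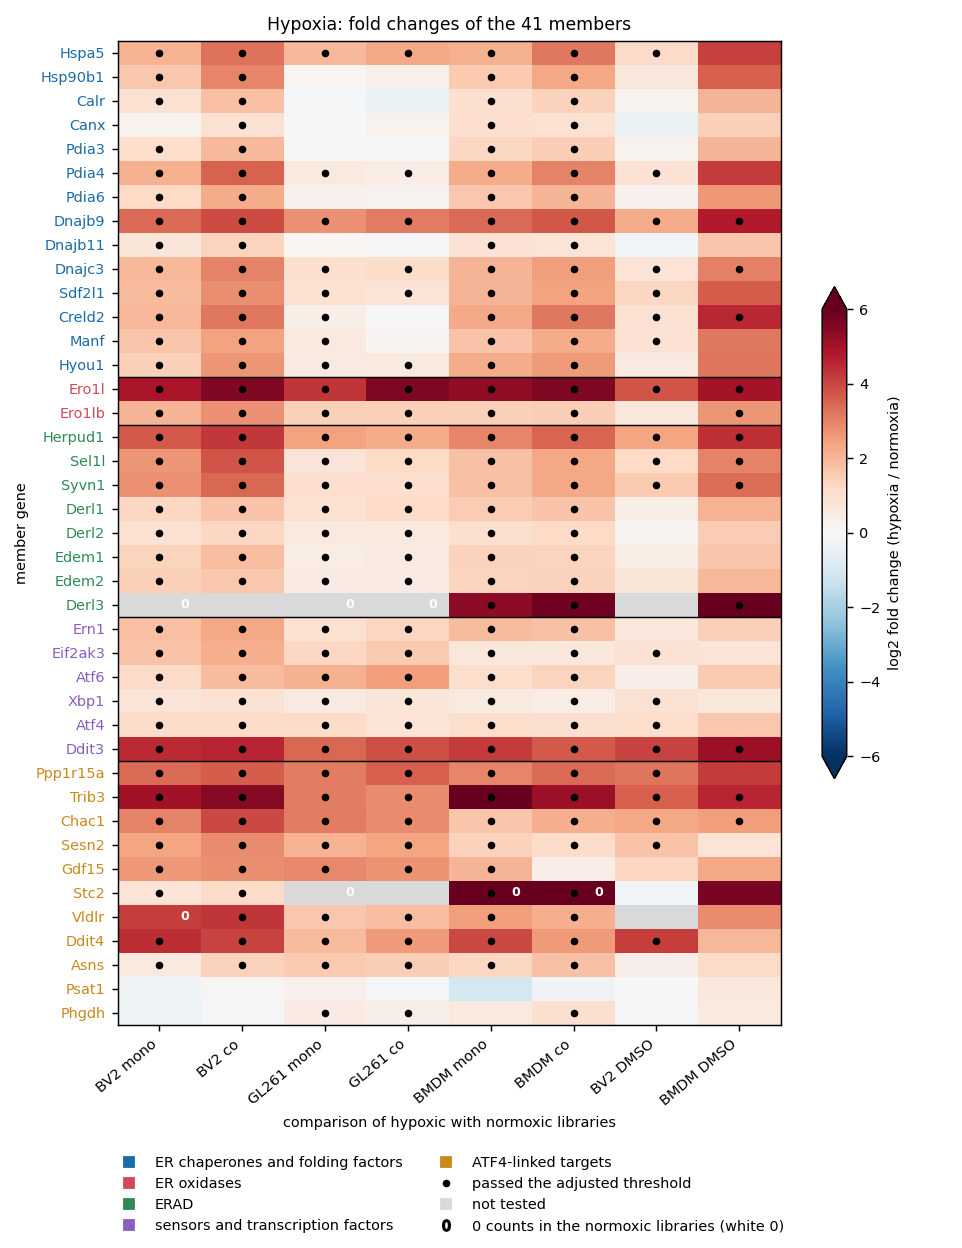
Log2 fold change of each member (rows, coloured by arm) between hypoxic and normoxic libraries in 8 comparisons (columns), with a black dot where the gene passed the adjusted threshold and grey where it was not tested. Colours end at 6, and a white 0 marks a normoxic group with no counts of the gene, where the fitted value is no measure of size. Most chaperone rows are paler in the GL261 columns than in the BV2 and BMDM columns of the first experiment, with Dnajb9 the reddest chaperone row in each of these and Canx pale in BV2 alone.

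Among chaperones, 13 of 14 were called higher with hypoxia in BV2 alone and all 14 in BMDM alone, with median log2 fold changes of 1.65 and 1.88. In GL261 alone 8 of 14 were called, with a median of 0.48. Hspa5 rose in all 3 cell types, from 1119.7 and 1411 to 4690.3 and 5975 CPM in BV2, from 881 and 935 to 3415 and 3553 CPM in GL261, and from 1274 and 1114 to 4799 and 5508 CPM in BMDM. All hypoxic libraries were above all normoxic ones, and the log2 fold changes were 2.08 ± 0.17, 1.94 ± 0.15 and 2.11 ± 0.38. Dnajb9 (ERdj4, a co-chaperone that binds IRE1) was the chaperone with the largest rise in each, at 3.41 ± 0.13 in BV2, 2.76 ± 0.15 in GL261 and 3.39 ± 0.34 in BMDM.

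Other chaperones parted by cell type. Hsp90b1 (GRP94, the ER form of Hsp90) went from 626 and 769 to 1785 and 2520.2 CPM in BV2 and from 813 and 674 to 2228 and 2180.2 CPM in BMDM, whereas in GL261 it was at 1044 and 1066 CPM in normoxia and 1113 and 1204 CPM in hypoxia. The groups did not overlap in any of the 3, but in GL261 the change of 0.13 ± 0.13 did not pass (adjusted p = 0.441). Calr rose from 1861 and 2171 to 3408 and 4219 CPM in BV2. In GL261 its normoxic libraries, at 1216 and 983 CPM, overlapped the hypoxic ones at 907 and 1095 CPM. Pdia3, a disulfide isomerase that works with calreticulin, changed by 1.07 in BV2 and 1.22 in BMDM, with 0.06 (adjusted p = 0.752) in GL261. Canx, the membrane-bound partner of Calr, was called higher in BMDM (1.02 ± 0.24) and not in BV2 (0.21 ± 0.16, adjusted p = 0.275). In GL261 the 6 chaperones that did not pass in monoculture were Hsp90b1, Calr, Canx, Pdia3, Pdia6 and Dnajb11.

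The ER oxidases, which pass electrons from disulfide isomerases to oxygen, were both called higher in each of the 6 comparisons of the first experiment. Ero1l was at 48.1 and 52 CPM in normoxic and 1330.1 and 1631 CPM in hypoxic BV2, at 54.9 and 63.5 and then 1111 and 1213 CPM in GL261, and at 21.6 and 21.3 and then 805 and 922 CPM in BMDM. Every hypoxic library was far above every normoxic one, with log2 fold changes of 4.89 ± 0.15, 4.29 ± 0.19 and 5.33 ± 0.42. Ero1lb rose less, by 2.05, 1.42 and 1.44. In GL261 it stayed at 8.51 and 9.26 CPM even in hypoxia.

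All ERAD members tested were called higher with hypoxia in monoculture: 7 of 7 in BV2, 7 of 7 in GL261 and 8 of 8 in BMDM, with medians of 1.45, 0.76 and 1.64. Herpud1, an ER membrane protein that assembles the degradation complex, rose from 82.3 and 95.7 to 1028 and 1261 CPM in BV2, from 85.7 and 93.9 to 463 and 494 CPM in GL261 and from 83.3 and 73.4 to 561 and 627 CPM in BMDM. Its log2 fold changes were 3.68 ± 0.16, 2.41 ± 0.13 and 2.92 ± 0.39, and the groups did not overlap. Sel1l and Syvn1 (HRD1), adaptor and ubiquitin ligase of the same complex, rose by 2.64 and 2.76 in BV2 but by 0.76 and 1.01 in GL261. Edem1 and Edem2, which mark misfolded glycoproteins for removal, rose by 1.34 and 1.45 in BV2 and by 0.47 and 0.48 in GL261.

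Derl3, a derlin of the degradation channel, had more than a few counts in BMDM only. It was at 3.07 and 2.71 CPM in normoxic and 116 and 122 CPM in hypoxic BMDM monocultures, a change of 5.36 ± 0.50 with no overlap. In BV2 and GL261 it was too low to be tested, and its highest value was 0.314 CPM, in a hypoxic BV2 library with DMSO. The related Derl1 and Derl2 rose in all 3 cell types, by 1.23 and 0.91 in BV2, 0.93 and 0.58 in GL261, and 1.54 and 0.95 in BMDM.

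All 6 sensors and transcription factors were called higher in each of the 6 comparisons of the first experiment. The largest change was that of Ddit3 (CHOP, a transcription factor linked to cell death), from 8.03 and 6.37 to 139 and 187 CPM in BV2, from 20.9 and 14.2 to 161 and 219 CPM in GL261 and from 19.2 and 22 to 295 and 464 CPM in BMDM. The log2 fold changes were 4.50 ± 0.22, 3.44 ± 0.20 and 4.20 ± 0.44, with no overlap between groups. Atf4 RNA rose by nearly the same amount in each, 1.12 ± 0.12, 1.10 ± 0.14 and 1.04 ± 0.23, and Xbp1 RNA by 0.76, 0.54 and 0.56. Splicing of Xbp1, phosphorylation of eIF2 and cleavage of ATF6 do not show in gene counts.

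The 3 sensors differed in rank between cell types. Ern1 rose by 1.81 in BV2 and 1.89 in BMDM, above Atf6 at 1.15 and 1.04. In GL261 Atf6 had the largest rise of the 3, from 48.1 and 55.5 to 251 and 206 CPM (2.14 ± 0.15), beside 0.89 for Ern1 and 1.24 for Eif2ak3. Its normoxic level was lower there than in BV2, where it went from 194 and 240.0 to 408 and 552 CPM. Eif2ak3 rose by 1.73 in BV2 and by 0.69 in BMDM.

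Of the ATF4-linked targets, 8 of 11 were called higher in BV2 alone (median 2.62), 9 of 10 in GL261 (median 1.99) and 9 of 11 in BMDM (median 2.06). Trib3, a pseudokinase that inhibits AKT, rose from 20.7 and 13.8 to 545 and 598 CPM in BV2, from 33.9 and 31.1 to 253 and 293 CPM in GL261 and from 4.49 and 6.61 to 342 and 347 CPM in BMDM. All groups were separate, at 5.05 ± 0.18, 3.07 ± 0.15 and 5.96 ± 0.35. Ppp1r15a (GADD34, which brings the phosphatase to eIF2) rose by 3.38, 3.07 and 2.94, and Chac1, which degrades glutathione, by 2.99, 3.12 and 1.67. Sesn2, a leucine sensor upstream of mTORC1, rose by 2.38, 2.09 and 1.38.

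Ddit4 stood at very different levels. It was at 8.42 and 10.2 CPM in normoxic and 198 and 197 CPM in hypoxic BV2, at 7.39 and 10.2 and then 129 and 142 CPM in BMDM, and at 529 and 472 and then 1763 and 1973 CPM in GL261. The normoxic GL261 libraries were thus above the hypoxic BV2 and BMDM libraries. Levels of each cell type were scaled in its own fit, and those of BMDM come from a separate table. The log2 fold change was 4.41 ± 0.24 in BV2, 3.95 ± 0.25 in BMDM and 1.90 ± 0.16 in GL261. Gdf15, a secreted stress cytokine, rose by 2.62, 2.87 and 2.06 in BV2, GL261 and BMDM.

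The 3 amino acid enzymes on the list changed less. Asns, asparagine synthetase, went from 122 and 86.7 to 149.9 and 159 CPM in BV2 (0.57 ± 0.14), from 92.5 and 106 to 299 and 299.8 CPM in GL261 (1.59 ± 0.13) and from 39.5 and 33.3 to 75.1 and 97.1 CPM in BMDM (1.24 ± 0.33), with no overlap in each. Phgdh, which opens serine synthesis, was called higher in GL261 (0.51 ± 0.12) and had -0.30 ± 0.13 (adjusted p = 0.0628) in BV2; 35.8% of its 75-base words also lie in the pseudogene Gm7901, so its counts are uncertain. Psat1, the next enzyme, had -0.22 ± 0.11, 0.32 ± 0.14 and -1.07 ± 0.42 and passed in none.

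Stc2 and Vldlr were each near 0 in some cell types. Stc2, a secreted glycoprotein, rose from 24.8 and 30.5 to 44.6 and 51.7 CPM in BV2 (0.80 ± 0.15). In BMDM it had 0 counts in both normoxic monoculture libraries and 1.02 and 2.07 CPM in hypoxia, at least 8.75-fold higher than a floor of 3 counts per library. Vldlr, a lipoprotein receptor, rose from 50.3 and 52.7 to 162 and 151 CPM in GL261 (1.61 ± 0.12) and from 1.09 and 1.13 to 5.09 and 7.67 CPM in BMDM (2.51 ± 0.37). In BV2 alone it had at most 4 counts in a library.

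**Figure D3:**
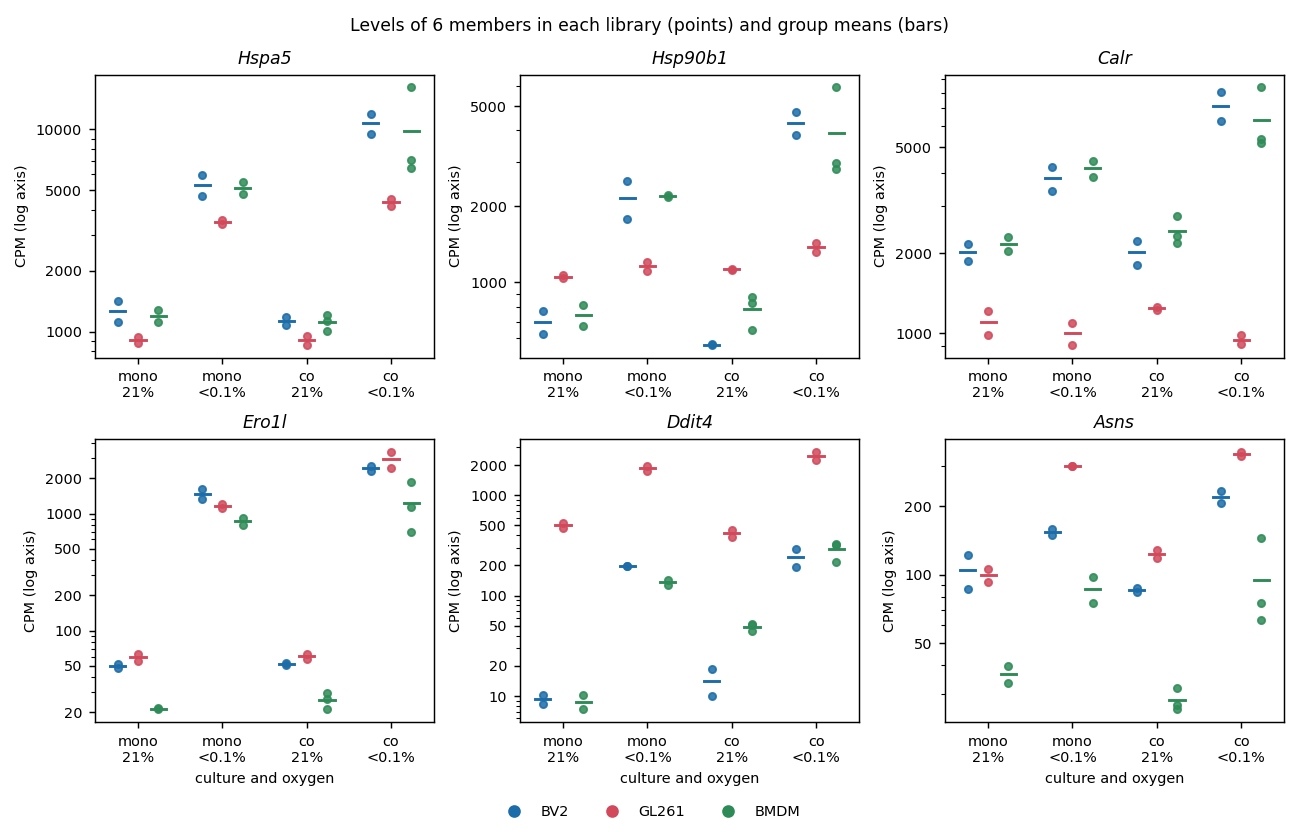
CPM on a log axis of 6 members in each library of the first experiment (points) with the group mean (bar), by culture and oxygen, in BV2 (blue), GL261 (red) and BMDM (green). Hspa5 and Ero1l rise in all 3, Hsp90b1 and Calr stay near their normoxic level in GL261, and Ddit4 is highest in GL261 in every condition. Levels were scaled separately in each cell type, and those of BMDM come from a separate table.

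The difference between the hypoxia effects of BV2 and GL261 was tested as an interaction term, since both lines are in 1 table. Of 40 members, 22 rose more in BV2 and 3 rose more in GL261, against 18.7% and 18.7% of all genes tested. The median difference of the members was 0.95, or 0.98 without Stc2, which had 0 counts in the GL261 monocultures, beside 0.15 over all genes (0.22 in DESeq2). Relative to the median of all genes it was 0.80, and none of the 25 called members changed sign when that median was taken off. In the chaperone arm 12 of 14 members differed, all towards BV2, with a median of 1.08, or 0.93 relative to all genes. Pdia4, a disulfide isomerase, differed by 1.67 ± 0.25, Creld2 by 1.67 ± 0.27, Hsp90b1 by 1.59 ± 0.23 and Calr by 1.16 ± 0.24. The 2 exceptions were Hspa5 (0.24 ± 0.23, adjusted p = 0.474) and Canx (0.27 ± 0.28, adjusted p = 0.517).

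In ERAD, 5 of 7 members rose more in BV2, led by Sel1l (1.98 ± 0.28) and Syvn1 (1.85 ± 0.19). The sensors were mixed: Ern1 (1.02 ± 0.23) and Ddit3 (1.16 ± 0.32) rose more in BV2, Atf6 rose more in GL261 (-0.89 ± 0.22), and Atf4 (0.13 ± 0.18), Xbp1 (0.31 ± 0.19) and Eif2ak3 (0.59 ± 0.24) did not pass. The ATF4-linked targets were split as well. Ddit4 (2.61 ± 0.31) and Trib3 (2.08 ± 0.23) rose more in BV2, and Asns (-0.92 ± 0.20) and Phgdh (-0.70 ± 0.18) more in GL261. Chac1, Gdf15, Sesn2 and Ppp1r15a lay between -0.15 and 0.41 and did not pass.

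Levels of many members already differed in normoxia, as did those of most genes tested. BV2 was above GL261 for 18 and below it for 13 of 40 members, against 33.8% and 39.4% of all genes, whose median was -0.12. BV2 was higher for chaperones such as Sdf2l1 (1.65 ± 0.18) and Hyou1 (1.13 ± 0.18), for Ero1lb (3.60 ± 0.22), Edem1 (1.99 ± 0.13), Atf6 (2.18 ± 0.16) and Xbp1 (1.39 ± 0.14), and for the serine enzymes Phgdh (1.84 ± 0.13) and Psat1 (1.14 ± 0.12). GL261 was higher for Ddit4 (-5.63 ± 0.26 for BV2 against GL261), Chac1 (-3.68 ± 0.23), Ppp1r15a (-2.07 ± 0.17) and Gdf15 (-1.65 ± 0.15). Stc2, with 27.6 CPM in BV2, was at least 191-fold higher there than in GL261, which had 0 counts. Vldlr, with 0 counts in BV2 and 47.4 CPM in GL261, was at least 364-fold lower in BV2, both against a floor of 3 counts per library. The CPM of Stc2 and Vldlr given here were scaled over both lines together.

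**Figure D4:**
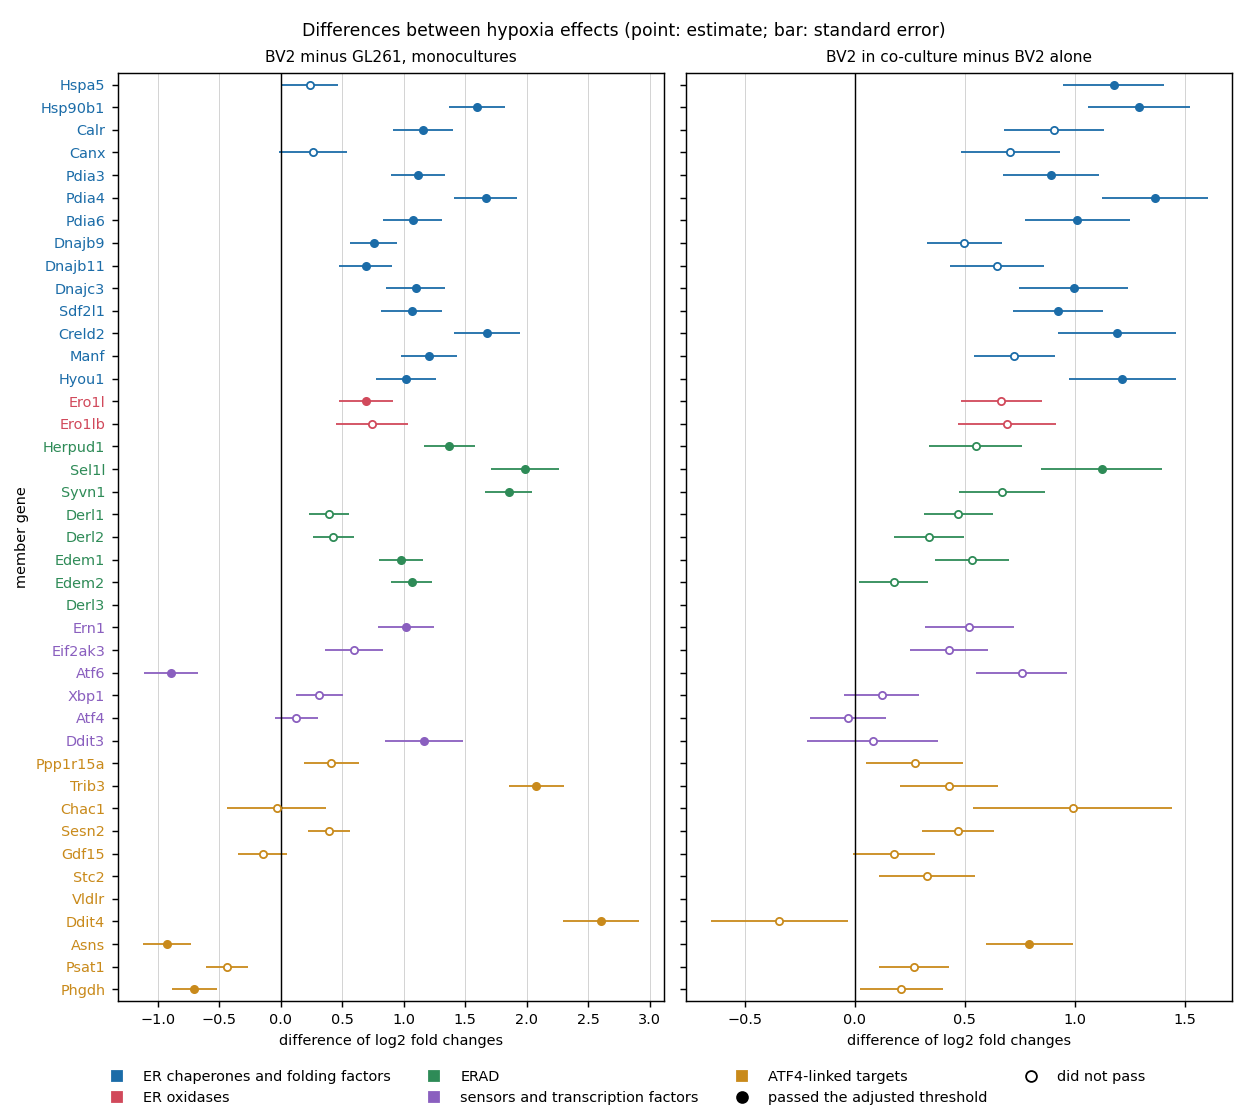
Difference between 2 hypoxia effects (x axis, log2) with its standard error for each member: BV2 minus GL261 in monoculture (left) and BV2 in co-culture minus BV2 alone (right). Filled points passed the adjusted threshold, members at 0 counts in a whole group (Stc2, Vldlr and Derl3 on the left, Vldlr and Derl3 on the right) are not drawn, and most chaperones lie to the right of 0 in both panels.

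Between BV2 from co-culture with GL261 and BV2 alone, 7 members were called in normoxia, a share near that of all genes. Hypoxic co-culture came with higher levels of nearly the whole chaperone arm. In normoxia 1 member was called higher (Ppp1r15a, 0.56 ± 0.17) and 6 lower of 40 (Canx, Hyou1, Edem1, Atf6, Sesn2 and Psat1, between -0.69 and -0.43), against 5.77% and 9.14% of all genes. Without 1 library the count of 7 fell to 2 (co-culture replicate 2), 4 (co-culture replicate 1) or 3 (monoculture replicate 2).

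In hypoxia 21 members were called higher and 0 lower in co-cultured than in lone BV2, against 8.13% and 7.57% of all genes, and 13 of the 14 chaperones were among them (median 0.77, beside 0.00 over all genes). The 21 include Vldlr, for which the estimated addition of GL261 RNA (3.45 CPM) was no smaller than the difference (2.84 CPM). Hspa5 stood at 9539 and 11958 CPM in co-cultured and 4690.3 and 5975 CPM in lone hypoxic BV2, a difference of 1.01 ± 0.16. Hsp90b1 was at 3844 and 4732 against 1785 and 2520.2 CPM (0.99 ± 0.16), and Pdia4 at 1639.7 and 2122 against 682 and 989.8 CPM (1.17 ± 0.17). For these 3 genes both co-culture libraries were above both monoculture libraries. Canx was the exception (0.05 ± 0.16, adjusted p = 0.88). Outside the arm Ero1l (0.71 ± 0.13), Ppp1r15a (0.84 ± 0.15), Sel1l (0.60 ± 0.19), Gdf15 (0.59 ± 0.12) and Asns (0.51 ± 0.14) were higher, and none of the 6 sensors and transcription factors passed: Atf4 had 0.08 ± 0.12 and Ddit3 0.25 ± 0.18. Without monoculture replicate 1, 10 members were called, and without co-culture replicate 2, 11.

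The hypoxia effect itself was larger in co-cultured BV2 for 11 of 40 members and smaller for 0, against 1.16% and 1.03% of all genes. These were 9 chaperones, with Pdia4 at 1.36 ± 0.24, Hsp90b1 at 1.29 ± 0.23, Hyou1 at 1.22 ± 0.24 and Hspa5 at 1.18 ± 0.23, together with Sel1l (1.12 ± 0.28) and Asns (0.79 ± 0.20). The count was 1 without hypoxic monoculture replicate 1 and 18 without its replicate 2, which was the higher of the pair for all 14 chaperones. It was 3 without normoxic monoculture replicate 2, and 4 without either normoxic co-culture library or without hypoxic co-culture replicate 2. Hypoxia alone raised 38 of 40 members in co-cultured BV2 and lowered 0, against 35.2% and 32.1% of all genes, with a chaperone median of 2.74. Vldlr, among the 38, was at a mean of 2.94 CPM in hypoxic co-culture, below its estimated addition of GL261 RNA (3.45 CPM).

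RNA of the partner cells was present in co-cultures. Judged by genes that the partner expressed 100-fold or more above the cell itself, GL261 RNA was estimated at 0.952% and 0.565% of normoxic and 2.07% and 2.33% of hypoxic co-cultured BV2 libraries, and at no more than 0.0524% of lone BV2. At such shares the level of Hspa5 in GL261 would add 76.8 of the 5205 CPM by which hypoxic co-culture exceeded monoculture, and that of Hsp90b1 25.5 of 2051 CPM. For Vldlr, which was called higher in co-cultured BV2 at 3.4 and 2.68 CPM, the expected addition of 3.45 CPM was no smaller than the observed difference of 2.84 CPM. The 12 glioma and neural markers summed to between 38.0 and 47.0 CPM in hypoxic co-cultured BV2, with Sox9 and Fabp7 at 0, against at most 2.53 CPM in lone hypoxic BV2.

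In GL261 co-culture with BV2 changed 1 member. No member was called in normoxia in either direction, of 39 tested in edgeR, against 0.323% of all genes higher and 0.191% lower; DESeq2 called 0 members, and 1287 genes had an unadjusted p under 0.05. In hypoxia 1 was called higher and 0 lower, against 0.889% and 0.5% of all genes. That gene was Ero1l, at 1111 and 1213 CPM alone and 2469.8 and 3357 CPM in co-culture, 1.33 ± 0.17 with adjusted p = 0.00397. Both co-culture libraries were above both monoculture libraries, and the normoxic levels of 54.9 and 63.5 and 57.7 and 62.7 CPM were alike. BV2 RNA was estimated at 0.267% and 0.214% of these libraries. The difference between the 2 hypoxia effects of Ero1l, 1.30 ± 0.24, did not pass in edgeR (adjusted p = 0.344), where 0 members were called either way and 0% and 0% of all genes were; 1354 genes had an unadjusted p under 0.05, and DESeq2 called 1 member. Within co-culture, hypoxia raised 30 and lowered 0 of 39 members (26.8% and 25.6% of all genes), with a chaperone median of 0.26.

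In normoxic BMDM 2 of the 11 ATF4-linked targets, and no other member, were called between co-culture with GL261 and monoculture. Gdf15 went from 19.3 and 28 CPM alone to 171, 136 and 92.8 CPM in co-culture (2.50 ± 0.40), and Ddit4 from 7.39 and 10.2 to 50.9, 52.3 and 44.2 CPM (2.48 ± 0.23), with no overlap. These were the 2 members called higher of 41, with 0 lower, against 1.57% and 0.0675% of all genes. GL261 RNA was estimated at between 1.34% and 3.71% of these libraries, which would add 0.58 of the 114 CPM difference for Gdf15 and 12.4 of 42.1 CPM for Ddit4. The count was 0 without monoculture replicate 1 and 1 without replicate 2. Leaving out genes higher in GL261, Ddit4 among them, also gave 0, with Gdf15 at adjusted p = 0.0679 in edgeR.

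In hypoxia 1 member, Ddit4, was called higher in co-cultured BMDM (129 and 142 against 218, 319 and 328 CPM, 1.09 ± 0.20) and 0 lower, beside 4.06% and 3.05% of all genes. The estimated GL261 share of between 1.66% and 5.94% would add 67.4 of the 157 CPM. Hspa5 was at 6454, 16152 and 7025 CPM in the 3 hypoxic co-cultures and 4799 and 5508 CPM in the monocultures. All 3 were above both, but replicate 2 was far from the others and the difference of 0.94 ± 0.34 did not pass (adjusted p = 0.119). The count was 0 without either monoculture library and 5 without co-culture replicate 1. No member differed in hypoxia effect between co-cultured and lone BMDM in edgeR, where 0% and 0% of all genes were called higher and lower; 636 genes had an unadjusted p under 0.05 and DESeq2 called 1 member. Within co-culture, hypoxia raised 39 and lowered 0 of 41 members, against 17.5% and 17.3% of all genes; Gdf15, already high in normoxia, was 1 of the 2 that did not pass (0.40 ± 0.32, adjusted p = 0.359).

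In the panobinostat experiment, BV2 with DMSO had a smaller set of calls with hypoxia: 20 members higher and 0 lower of 39, against 17.2% and 20.2% of all genes, with a median of 0.86. Ddit4 rose from 15.3 and 16.6 to 264 and 294 CPM (4.13 ± 0.23) and Ddit3 from 16.5 and 7.59 to 177 and 219 CPM (4.04 ± 0.35). Among 14 chaperones 7 passed, with Hspa5 at 1632 and 1109.7 CPM in normoxia and 3557 and 2573 CPM in hypoxia (1.16 ± 0.30), and Hsp90b1 (0.70 ± 0.28) and Calr (0.23 ± 0.25) did not. The normoxic replicates lay apart, as for Dnajb9 at 43.9 and 14.2 CPM and Gdf15 at 59.1 and 8.07 CPM, replicate 1 being the higher. Without that library 28 members were called, and without hypoxic replicate 1, 13. The 2 BV2 experiments are in separately normalized tables, and their effects were not compared by a test.

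BMDM with DMSO had large rises by fold but the fewest calls of the 8 comparisons with hypoxia. Hspa5 went from 856 and 1047 to 23796 and 8783 CPM (4.10 ± 0.75, adjusted p = 0.0729), Creld2 from 63.5 and 66.3 to 1983 and 993 CPM (4.52 ± 0.51, adjusted p = 0.0426) and Derl3 from 0.365 and 1.64 to 404 and 171 CPM (8.13 ± 0.85). The groups did not overlap for any of the 3, and hypoxic replicate 1 was the higher of its pair for each. In all 12 of 41 members were called higher and 0 lower, against 0.469% and 0.0134% of all genes, with a median of 2.62. These shares of all genes were counted in edgeR only. DESeq2 called 37; without hypoxic replicate 2 the count was 27, and without any 1 of the other 3 libraries it was 0. The fibroblast and endothelial markers summed to 23243 CPM in normoxic replicate 1 and 20466 CPM in replicate 2, and to 2675 CPM in hypoxic replicate 1 and 13846 CPM in replicate 2, and the 12 myeloid markers to between 7647 and 10425 CPM and between 3881 and 5285 CPM; the part of these differences in the member results was not tested.

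Hypoxia effects of BV2 and BMDM with DMSO were compared in the table that holds both. Pdia4 (-3.25 ± 0.59) and Creld2 (-3.55 ± 0.56) rose less in BV2. Stc2 (-5.82 ± 0.84) had a log2 fold change of -0.19 in BV2, and its rise in BMDM with DMSO was not itself called. Its normoxic level was higher in BV2 than in BMDM by 5.47 ± 0.67. Thus 3 members were lower and 0 higher of 41, against 0.207% lower and 0.458% higher of all genes. The count was 20 without hypoxic BMDM replicate 2 and 0 without hypoxic BMDM replicate 1, normoxic BMDM replicate 1 or any 1 of the 4 BV2 libraries. In normoxia 8 members were higher and 4 lower in BV2, against 17.1% and 27.1% of all genes (median -0.11): Phgdh (2.93 ± 0.25), Psat1 (2.82 ± 0.32) and Atf6 (1.88 ± 0.36) were higher in BV2, and Chac1 (-2.56 ± 0.48) and Ddit4 (-2.11 ± 0.32) higher in BMDM. The other members lower in BV2 were Derl3 and Vldlr, with at most 1 and 2 counts in a normoxic BV2 library of this experiment. The fibroblast and endothelial markers, at most 97.3 CPM in BV2 of this table, move with this contrast too, and their part was not tested.

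In edgeR 2 members were lower with panobinostat in hypoxic BV2. Atf4 was at 763 and 914 CPM with DMSO and 464 and 489 CPM with panobinostat, -0.82 ± 0.23 with adjusted p = 0.0447. Stc2 was at 41.7 and 53.3 CPM and then 18 and 17.7 CPM, -1.41 ± 0.28 with adjusted p = 0.0126. Both treated libraries were below both DMSO libraries, and the treated level of Atf4 was near the normoxic one of 451 and 344 CPM. These 2 of 39 members, with 0 higher, stand against 7.39% lower and 7.21% higher of all genes; the median of the members was -0.38, and that of all genes -0.01.

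DESeq2 called 8 members, 1 higher and 7 lower, so the number of members past the threshold depends on the fit. The share of all genes that DESeq2 called was not counted. In edgeR other members of the ATF4 arm had negative values that did not pass: Phgdh at 803 and 779.8 and then 489.6 and 455 CPM (-0.74 ± 0.22, adjusted p = 0.0501), Asns at -0.70 ± 0.23 (adjusted p = 0.0665) and Trib3 at -0.98 ± 0.46 (adjusted p = 0.173). Ddit4 (0.57 ± 0.20, adjusted p = 0.0807), Ddit3 (0.30 ± 0.31) and Ero1l (0.44 ± 0.31) had positive values, also without passing. The count of 2 was 0 without either treated library, 1 without DMSO replicate 1 and 4 without DMSO replicate 2. Myeloid markers summed to between 3031 and 3374 CPM with panobinostat and between 4136 and 4517 CPM with DMSO in hypoxic BV2, and their part in the result was not tested.

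**Figure D5:**
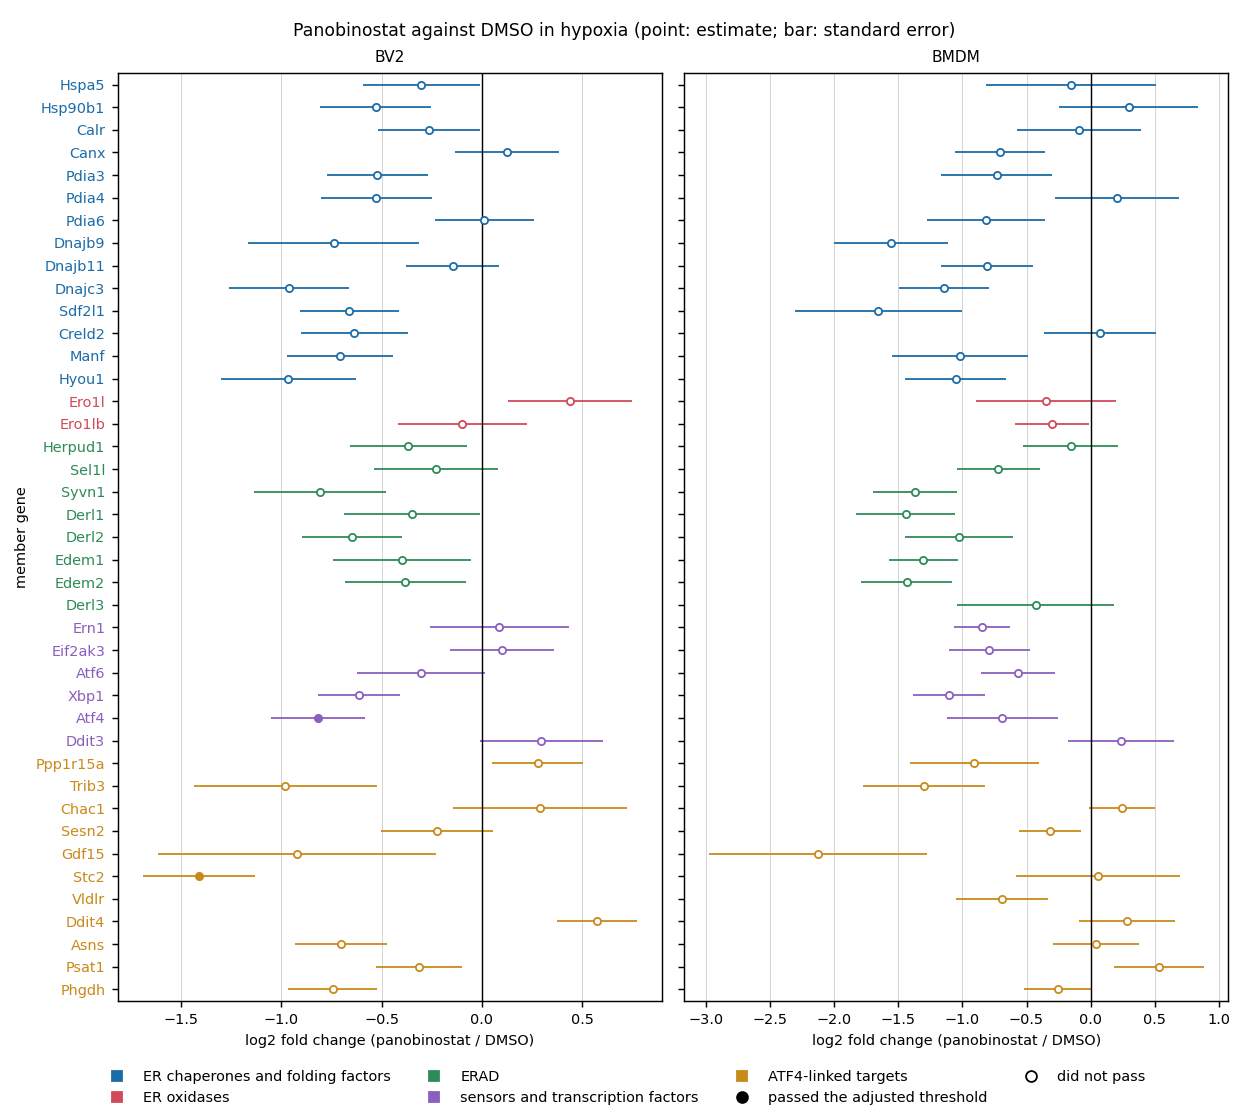
Log2 fold change (x axis) of each member with its standard error between panobinostat and DMSO in hypoxic BV2 (left) and BMDM (right). Filled points, which are Atf4 and Stc2 in BV2, passed the adjusted threshold, and the 2 panels have different scales.

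In hypoxic BMDM no member was called with panobinostat in edgeR, and neither was any other gene (0% higher and 0% lower), although 3868 genes had an unadjusted p under 0.05 and DESeq2 called 9 members, all lower. The share of all genes that DESeq2 called was not counted, so these 9 have no background beside them. The median of the 41 members was -0.71. Their share of all counts was 7.97% and 4.72% with panobinostat and 7.89% and 4.33% with DMSO. Syvn1 went from 1383 and 932 to 506 and 393 CPM (-1.37 ± 0.33, adjusted p = 0.0817) and Edem1 from 746 and 648 to 303 and 262 CPM (-1.30 ± 0.27, adjusted p = 0.0671), each with no overlap, and both were chosen after their values were seen. Hspa5 overlapped, at 23796 and 8783 against 19889 and 9356 CPM. The myeloid markers summed to between 977 and 2489 CPM with panobinostat and between 3881 and 5285 CPM with DMSO, and the fibroblast and endothelial list to 8761 and 14368 CPM with panobinostat; their part was not tested. No member differed between BV2 and BMDM in its response (0.0188% and 0.00627% of all genes did, 1793 had an unadjusted p under 0.05, and DESeq2 called 0 members).

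Genes of the same pathways outside the 41 were taken from 6 lists. Of 36 further ATF4-linked genes, 25 were higher and 2 lower with hypoxia of 33 tested in BV2 alone, 31 and 0 of 34 in GL261, and 17 and 1 of 34 in BMDM. The shares of all genes called higher and lower with hypoxia in monoculture were 30.9% and 31% in BV2, 23.2% and 21.4% in GL261 and 13.3% and 10.6% in BMDM. Atf3, a stress-induced transcription factor, rose by 4.38 ± 0.24 in GL261 and 2.81 ± 0.14 in BV2, and Slc7a11, the cystine transporter, by 3.22 ± 0.28 in GL261. The difference between the lines was -2.06 ± 0.19 for Slc7a5, a leucine transporter, and -2.01 ± 0.17 for Shmt2, an enzyme of mitochondrial serine use, both towards GL261. With panobinostat in hypoxic BV2, 9 of 30 were lower and 1 higher, against 7.39% and 7.21% of all genes; among those lower were Mthfd2 (-1.46 ± 0.22), Mthfd1l (-1.49 ± 0.20) and Slc6a9 (-1.75 ± 0.47).

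Aminoacyl-tRNA synthetases, several of them ATF4 targets, were taken as a list of 20. In GL261 alone 14 were higher and 1 lower with hypoxia (median 0.75), against 23.2% and 21.4% of all genes. In BV2 alone 7 were higher and 6 lower (median 0.03), shares near the 30.9% and 31% of all genes. Wars rose from 86.3 and 75.3 to 225 and 228 CPM in GL261 and was at 164 and 155 and then 125 and 172 CPM in BV2. The interaction term was called for 1 gene towards BV2 and for 13 towards GL261, against 18.7% and 18.7% of all genes, led by Wars (-1.48 ± 0.21), Yars (-1.33 ± 0.15) and Mars (-1.31 ± 0.16).

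The 13 genes of eIF2 kinases, eIF2 and its exchange factor eIF2B encode the step the integrated stress response acts on. In BV2 alone 9 were lower and 0 higher with hypoxia (median -0.64), against 31% lower and 30.9% higher of all genes. In GL261 3 were higher and 0 lower (median 0.18), a share near the 23.2% of all genes called higher there. Eif2b3 fell from 50.9 and 49.6 to 9.08 and 7.19 CPM in BV2 (-2.63 ± 0.14) and was at 14.1 and 12.9 and then 14.5 and 13.4 CPM in GL261. Eif2b4 (-1.55 ± 0.13) and Eif2b1 (-1.42 ± 0.14) also fell in BV2. Whether the counting used strand is not given, so reads of genes that overlap these on the other strand may not be separated. The interaction term was called for 10 of the 13, all towards GL261 (18.7% of all genes), with Eif2b3 at -2.58 ± 0.20 and Eif2s1, the eIF2 subunit that is phosphorylated, at -1.42 ± 0.19. In BMDM alone 3 were lower and 1 higher, against 10.6% and 13.3% of all genes, and in BV2 with DMSO 8 were lower and 0 higher, against 20.2% and 17.2%.

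Beside shares of all genes of 30.9% higher and 31% lower in BV2, 23.2% and 21.4% in GL261, and 13.3% and 10.6% in BMDM, 3 further lists were counted. Of 36 other ER folding and glycosylation genes, 20 were higher and 5 lower in BV2, 6 and 9 in GL261, and 20 and 0 in BMDM. P4hb, the abundant disulfide isomerase, rose by 1.92 ± 0.13 in BV2 and 2.12 ± 0.31 in BMDM, and its effect was larger in BV2 than in GL261 by 1.67 ± 0.19. Mogs, which trims glycans on new proteins, was lower in both lines, at -1.39 in BV2 and -1.04 in GL261. Of 23 other ERAD and ER membrane genes, 11 were higher and 8 lower in BV2, 7 and 3 in GL261, and 9 and 0 in BMDM, with Wfs1 called higher in all 3. Of 16 other ER stress transducers, 5 were higher and 8 lower of 15 tested in BV2, 6 and 3 in GL261, and 5 and 0 in BMDM; Creb3l2 rose by 2.58 ± 0.14 in BV2 and Creb3l1 by 1.76 ± 0.21 in GL261.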

How the data were processed

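Gene counts per library, not normalized, were deposited by the authors in 3 tables (BV2 with GL261, BMDM, and the panobinostat experiment), each listing 55487 mouse genes by Ensembl identifier. Per the labels, polyA RNA of glyoxal-fixed cells was made into stranded libraries. Per the submitters' processing notes, the build was mm10 and the tools included Trimmomatic 0.36, STAR 2.6, Picard 2.17.1, SAMtools, HTSeq 0.9.1 and deepTools; their settings, the annotation release and the use of strand are not given in the sources used here, so reads of genes that overlap on opposite strands may not be separated.

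The deposited counts were fitted with edgeR 4.0.16 in R 4.3.3 (quasi-likelihood test, trimmed mean of M-values scaling, genes kept at a minimum count of 10 and a total of 15), per cell type and experiment, and over 16 or 12 libraries for interactions between cell types. Standard errors were the absolute log2 fold change over the square root of F. The 24 comparisons were adjusted by Benjamini-Hochberg over all genes tested, at 0.05. Between 39 and 41 members passed the filter in a fit. Totals ranged from 9634700 to 27238933 counts, and the biological coefficient of variation from 0.0958 in BV2 of the first experiment to 0.381 in BMDM of the second. No pair of replicates was as close as sampling noise. The fit was tested on simulated data. The members, the pathway lists and the marker lists were chosen with earlier results of these data known.

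Same-numbered libraries deviated together in each of 3 pairs for hypoxic and normoxic BMDM co-cultures (correlations of 0.455, 0.244 and 0.407). The reported fits used group means without a replicate block, so the values of that comparison also come from an unpaired test. Groups of 2 libraries give a single correlation per pair of groups, so there the numbers were not taken as pairing, although in the second experiment these were between 0.154 and 0.593. Alternatives were DESeq2 1.42.0, its size factors, no filter and a mean CPM of at least 5, a replicate block, leaving out each library, and leaving out genes that the partner expressed 4-fold or more above the cell itself. Partner RNA was estimated from genes with 20 CPM or more in the partner and a 100-fold excess over the cell. Values per library are given for some called members with the largest changes in an arm, though not for all of these. They are also given for other members, called or not, that no such rule picked, such as Hspa5 and Calr. From each other list they are given for at most 3 called genes per comparison with the largest change and a mean log2 CPM of at least 2. Genes whose 75-base words occur in other genes by over 1% were Phgdh at 35.8%, Ero1lb at 7.74%, Derl1 at 3.88%, Dnajb9 at 2.55%, Ddit3 at 1.81% and Hsp90b1 at 1.73%. Promoter windows are RefSeq's on GRCm38.p6.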

Additional observations from a re-analysis of the deposited data

Results flagged for a closer look

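Each value here is a difference between groups in the log2 effect of hypoxia that passed an interaction term of edgeR, adjusted over all genes tested; groups had 2 or 3 libraries, too few to look for single distant samples.

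Between BV2 and GL261 monocultures, 12 chaperones rose more in BV2: Hsp90b1 by 1.59, Calr by 1.16, Pdia3 by 1.12, Pdia4 by 1.67, Pdia6 by 1.07, Dnajb9 by 0.75, Dnajb11 by 0.69, Dnajc3 by 1.10, Sdf2l1 by 1.06, Creld2 by 1.67, Manf, a secreted ER stress factor, by 1.21 and Hyou1, an ER Hsp70 relative, by 1.02. The oxidase Ero1l rose more by 0.69. The ERAD genes Herpud1 (1.37), Sel1l (1.98), Syvn1 (1.85), Edem1 (0.98) and Edem2 (1.06) differed in the same direction, and so did Ern1 (1.02), Ddit3 (1.16), Trib3 (2.08) and Ddit4 (2.61). Atf6 at -0.89, Asns at -0.92 and Phgdh at -0.70 rose more in GL261, and the counts of Phgdh are shared in part with a pseudogene. Of all genes tested, 18.7% were called in each direction.

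Between BV2 and BMDM with DMSO, Pdia4 at -3.25, Creld2 at -3.55 and Stc2 at -5.82 rose more in BMDM, where fibroblast and endothelial markers also differed between the oxygen levels. Their part was not tested. Of all genes tested, 0.207% were called lower and 0.458% higher in this term.

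Between co-cultured and lone BV2, 9 chaperones had the larger effect in co-culture: Hspa5 by 1.18, Hsp90b1 by 1.29, Pdia3 by 0.89, Pdia4 by 1.36, Pdia6 by 1.01, Dnajc3 by 0.99, Sdf2l1 by 0.92, Creld2 by 1.19 and Hyou1 by 1.22. Sel1l (1.12) and Asns (0.79) were the others. Of all genes tested, 1.16% were called higher and 1.03% lower in this term. Replicate 2 of the hypoxic monocultures was the higher of its pair for all 14 chaperones, and the calls depended on single libraries.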

How the results depend on the processing

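No alternative turned the direction of a called result; of the single-member values called in the reported fit, the alternative or both, 3220 were called in both, 399 only under the alternative and 309 only in the reported fit. Members called without filter were 11 in normoxic BV2 co-culture, 19 for the BV2 co-culture interaction, 12 for panobinostat in BV2, 36 for hypoxia in BMDM with DMSO, 11 for panobinostat in BMDM, 21 for the BV2 against BMDM interaction, 5 and 13 for co-culture of normoxic and hypoxic BMDM, 1 and 3 for the GL261 and BMDM co-culture interactions and 1 for the panobinostat interaction. DESeq2 called 8 for panobinostat in BV2, 37 for hypoxia in BMDM with DMSO, 9 for panobinostat in BMDM, 21 for the BV2 against BMDM interaction, 4 and 7 for co-culture of normoxic and hypoxic BMDM, and 1 for each of the GL261 and BMDM co-culture interactions; its size factors in edgeR gave 7 for that of BV2. With a mean CPM of at least 5, counts were 6 for the BV2 co-culture interaction, 1 for panobinostat in BV2 and 6 for BV2 against BMDM. Without genes higher in the partner, both BMDM co-culture counts were 0. Shares of all genes were counted for the reported fit only, so none stands beside these counts.

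With the replicate block, counts were 15 for panobinostat in BV2 (1 higher, 14 lower), 36 for hypoxia in BMDM with DMSO, 8 for panobinostat in BMDM, 8 for the BV2 against BMDM interaction, and 5 and 2 for co-culture of normoxic and hypoxic BMDM; the block moved no other count by over 1.5 times. Mean correlations of same-numbered libraries were 0.033 in BV2, 0.18 in GL261 and 0.148 in BMDM of the first experiment, and 0.30 and 0.45 in BV2 and BMDM of the second, where the labels do not say what a number marks.

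Leaving out 1 library at a time gave between 25 and 31 calls for hypoxia in BMDM alone, 13 and 28 in BV2 with DMSO, and 0 and 27 in BMDM with DMSO. Co-culture gave between 2 and 7 in normoxic BV2, 10 and 22 in hypoxic BV2, 1 and 18 for the BV2 interaction, 0 and 3 in normoxic BMDM and 0 and 5 in hypoxic BMDM. Panobinostat in BV2 gave between 0 and 4, and BV2 against BMDM between 0 and 20 for the interaction and 8 and 14 in normoxia. Where this left 1 library in a group, its spread was taken from the other groups. The cause of these moves was not tested. Depth limits Derl3, Stc2 and Vldlr, which had few or no counts in some cell types.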
